A study of Mus musculus with 2 samples.

Results

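Transcripts of 10 genes that restrain the cell cycle were examined in bone marrow lineage- Sca1+ c-Kit+ (LSK) cells of C57BL/6J mice, the fraction that holds blood stem cells and early progenitors. The genes were chosen by name: the CDK inhibitors Cdkn1a, Cdkn1b, Cdkn2a, Cdkn2c and Cdkn2d, the pocket proteins Rb1, Rbl1 and Rbl2, and Trp53 with its ubiquitin ligase Mdm2. Of the 10, 9 had at least 1 named probe, 23 probes in all, among 19057 genes with a named probe on the array, and 8 were detected on both arrays. Trp53, the p53 gene itself, had no probe with its name in the annotation used here and was not analysed. One sample had the genotype given as Control and the other as Ago2 Hem KO, a deficiency of Ago2, the Argonaute protein that with bound microRNAs silences messenger RNAs. Each was read on 1 Illumina bead array, so no difference could be set against replicate spread and no test was run. The sources used here do not give the promoter behind the deletion, the age or sex of the mice, or how many mice went into each sample.

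Cyclin-dependent kinases bound to cyclins drive cells out of G1 by phosphorylating the pocket proteins, which otherwise hold E2F transcription factors in check. Cip/Kip inhibitors act on several cyclin-CDK complexes, and INK4 inhibitors bind CDK4 and CDK6. p53 switches on Cdkn1a and Mdm2, and Mdm2 in turn marks p53 for degradation. In mice, loss of p21 (Cdkn1a), of p18 (Cdkn2c) or of pocket proteins is known to change how often blood stem cells divide.

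Several of these transcripts are described microRNA targets. In human cells, microRNAs of the miR-17 family silence p21, and miR-221 and miR-222 silence p27, the product of Cdkn1b. Their mature mouse sequences are shown because the seed is the stretch that guides an Argonaute protein to a transcript, with that seed (bases 2 to 8) in capitals. The sequences are those of RefSeq on GRCm38.p6.
mmu-miR-17-5p: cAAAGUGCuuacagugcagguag
mmu-miR-106b-5p: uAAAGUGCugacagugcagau
mmu-miR-221-3p: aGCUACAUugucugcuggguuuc
mmu-miR-222-3p: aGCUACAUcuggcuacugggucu
The first pair share the seed AAAGUGC, carried by 7 mature microRNAs of the table used, and the second pair the seed GCUACAU, carried by 3. MicroRNA levels were not measured here.

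Start-site windows of 300 bases, from 250 before to 50 after a RefSeq start, were found for 9 members, all but Rb1, 12 windows in all. Both strands were searched for the E2F-type motifs TTTCGCGC, TTTGGCGC and TTCCCGCC and for the p53 consensus decamer, which reads the same on both strands. No motif match overlapped another. An E2F-type motif was present in 1 of the 12 windows, that of Rbl1, against 2.96% of 32851 windows of all genes. The p53 decamer, which alone is only a half-site, was present in 4 of the 12, against 8.36% of all windows. These were windows of Cdkn1a, Cdkn2d, Mdm2 and Trp53. The windows of Cdkn1a and Rbl1 are shown because these genes lay above 0 on every detected probe. The Cdkn1a window is chr17:29090729-29091028 on the plus strand, 1 of 2 windows of the gene, the other holding no match. The Rbl1 window is chr2:157204485-157204784 on the minus strand, read along the gene. Capitals mark 2 p53 decamers in the first and TTTCGCGC in the second.
Cdkn1a: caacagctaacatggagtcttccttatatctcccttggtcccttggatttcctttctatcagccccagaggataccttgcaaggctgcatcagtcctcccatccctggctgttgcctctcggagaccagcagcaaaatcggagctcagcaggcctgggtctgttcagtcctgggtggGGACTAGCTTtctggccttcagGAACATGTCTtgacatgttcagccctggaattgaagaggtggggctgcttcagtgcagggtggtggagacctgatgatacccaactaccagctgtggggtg
Rbl1: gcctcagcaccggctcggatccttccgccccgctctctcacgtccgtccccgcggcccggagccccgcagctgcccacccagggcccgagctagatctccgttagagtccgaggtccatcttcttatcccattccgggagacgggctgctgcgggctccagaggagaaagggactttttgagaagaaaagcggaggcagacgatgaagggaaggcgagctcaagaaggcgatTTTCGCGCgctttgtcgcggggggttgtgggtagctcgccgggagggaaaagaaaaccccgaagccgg
The second decamer of Cdkn1a began 51 bases before that start, and the Rbl1 motif 18 bases before its start. These matches are letters only, and binding was not measured.

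The arrays carried 45281 probes, of which 14834 passed detection (detection p under 0.01) on the control array and 15594 on the other. Signals were higher overall on the Ago2 Hem KO array, where the upper quartile was 135 (121 in the control), and 84.7% of probes detected on both arrays had the higher deposited signal there. Ago2 itself was 2.44-fold, 1.73-fold and 1.36-fold lower on its 3 probes, though the sources used here do not place these probes relative to the deletion. Of the LSK markers, Kit, Cd34, Meis1 and Gata2 were detected on both arrays and Flt3 on neither, while Ly6a, which encodes Sca1, had no named probe. Summed signals of the 4 detected LSK markers were 3812 and 5230. All 4 lay above 0 after normalization, with a median log2 difference of 0.26. Fewer cells of a type and less RNA per cell cannot be told apart in such bulk samples. All 5 erythroid markers detected on both arrays (of 7 listed) had 2-fold or greater excess in Ago2 Hem KO cells, and their summed signals were 1435 and 4250. Epor was detected there alone. Of 7 neutrophil markers, 6 were detected on both arrays with summed signals of 22470 and 24633, Ltf and Retnlg being at least 2-fold lower, and Mmp9 was detected in the control alone. Summed signals of 3 of 6 monocyte or macrophage markers were 447 and 514, with C1qa, C1qb and C1qc passing detection only in Ago2 Hem KO cells. Those of 4 of 7 B cell markers were 1030 and 939.8, Pax5 being undetected on both arrays. Those of 2 of 5 T or NK cell markers were 282 and 308, with Cd3e and Cd3g undetected on both. These sums are of deposited signals, control first. Probes detected on both arrays had a median deposited signal ratio of 1.11 (Ago2 Hem KO over control). After normalization, the median log2 difference was 1.44 for the erythroid, -0.07 for the neutrophil and 0.36 for the monocyte or macrophage markers. It was -0.29 for the B cell and -0.12 for the T or NK cell markers. The part of these other cells in the values below was not tested.

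None of the 8 members detected on both arrays differed by 2-fold, or by 1.5-fold, in either direction. Over all 8212 genes detected on both arrays, 0.438% differed by 2-fold or more and 3.80% by 1.5-fold or more. Of the same genes, 0.304% were at least 2-fold higher and 0.134% lower, and 1.90% were at least 1.5-fold higher and 1.90% lower. Under scaling to the same median these last shares were 6.44% and 0.402%, and 1 member, Rb1, passed 1.5-fold. The members' log2 differences (Ago2 Hem KO minus control, brightest detected probe) ran from -0.34 for Rbl2 to 0.39 for Rb1, with a median of -0.09 against -0.05 for all genes. The members thus lay inside the central 95% range of all genes, -0.55 to 0.53. Cdkn1a, Rb1 and Rbl1 lay above 0 and Cdkn1b, Cdkn2c, Cdkn2d, Rbl2 and Mdm2 below, except that Cdkn2c, Cdkn2d and Mdm2 lay above 0 under scaling to the same median, and Mdm2 also with the mean of its probes. On the second brightest probe, Rb1 lay below 0 (-0.22) and Cdkn2c (0.24) and Mdm2 (0.17) above. Scaling to the same median moved the median of all genes by 0.21. Measured from the median of all genes, Cdkn2c, Cdkn2d and Mdm2 were below it under that scaling too.

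**Figure D1:**
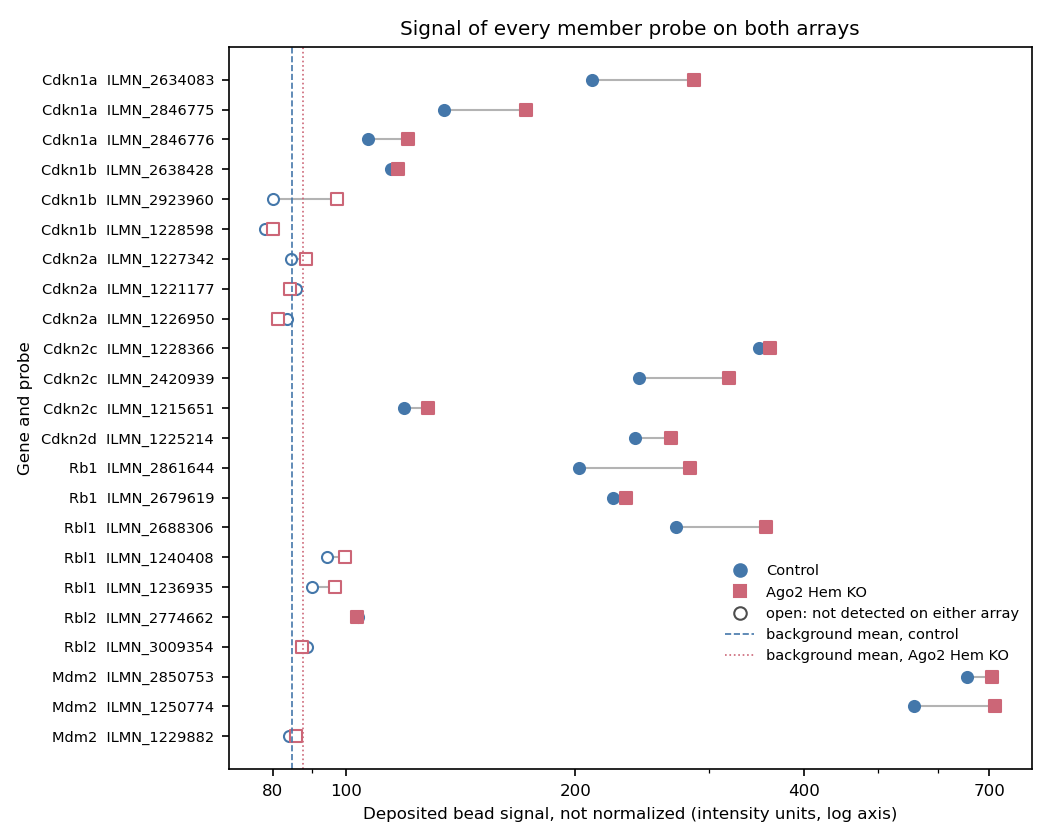
Deposited, non-normalized bead signal (log axis) of all 23 member probes on the control array (circles) and the Ago2 Hem KO array (squares), with open symbols for the 9 probes detected on neither array and vertical lines at each array's background mean. Of the 14 probes detected on both arrays, 13 had the higher deposited signal on the Ago2 Hem KO array, the exception being Rbl2.

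Cdkn1a, which encodes p21, the Cip/Kip inhibitor induced by p53, was higher in Ago2 Hem KO cells by all of its 3 probes. Its brightest probe read 211 in the control and 286 in Ago2 Hem KO cells, the next 134 and 172, and the dimmest 107 and 121, all detected on both arrays. After normalization these were log2 differences of 0.33, 0.34 and 0.14, or 1.25-fold, 1.27-fold and 1.10-fold. The probes thus gave 1 direction and spanned 0.21 on the log2 scale. Over genes with a second detected probe, 3016 in number, the brightest minus the second had an SD of 0.29, which serves here as a measure of how far probes of a gene differ. Of 757 genes with exactly 3 detected probes, 16.6% lay above 0 on all of them. Cdkn1a stood above 92.0% of all genes detected on both arrays and remained above their median in all 9 settings compared, by 0.25 to 0.40.

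Cdkn1b, which encodes p27, a Cip/Kip inhibitor abundant in resting cells, was measured by 1 of its 3 probes. That probe read 115 in the control and 117 in Ago2 Hem KO cells. It stood 7.12 background SDs above the background mean in the control and 6.63 in Ago2 Hem KO cells, and its normalized log2 difference was -0.27, or 1.21-fold lower. A second probe read 80.1 and 97.3, with detection p of 0.908 and 0.0363, and pointed the other way without passing detection. The last read 78.2 and 80.1, below the background mean of both arrays. The lower value of Cdkn1b therefore rested on a single dim probe, and its log2 difference was -0.09 in the authors' value table. Cdkn1c, the remaining Cip/Kip gene, encoding p57, read 154 and 148 on its only probe, a log2 difference of -0.45. That difference was -0.24 without background correction.

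Among the INK4 genes, Cdkn2a was detected on neither array. The gene encodes p16Ink4a and, from another first exon and reading frame, the Mdm2 antagonist p19Arf. The probe annotated to 1 of its RefSeq transcripts read 84.7 in the control and 88.4 in Ago2 Hem KO cells, with detection p of 0.441 and 0.366. The probes annotated to the other transcript read 86.0 and 84.2, and 83.5 and 81.4. All 3 sat within 1.5 background SDs of the background mean on both arrays, so no difference can be given for either product. Cdkn2b, the neighbouring INK4 gene, encoding p15, was likewise not detected, at 78.7 and 85.4.

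Cdkn2c, which encodes p18, was detected on all of its 3 probes, and they differed in sign. The brightest read 349 in the control and 361 in Ago2 Hem KO cells, a log2 difference of -0.22. A second, annotated to a cDNA clone and not to the RefSeq transcript, read 243 and 319, a log2 difference of 0.24. The dimmest read 119 and 128, a log2 difference of -0.09. The range over these probes was 0.46, and the mean of the probes was -0.02. Of the 757 genes with exactly 3 detected probes, 43.9% had all of them on the same side of 0. Cdkn2d, which encodes p19Ink4d, read 239.9 and 267 on its single probe, a log2 difference of -0.06, within 0.02 of the median of all genes.

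**Figure D2:**
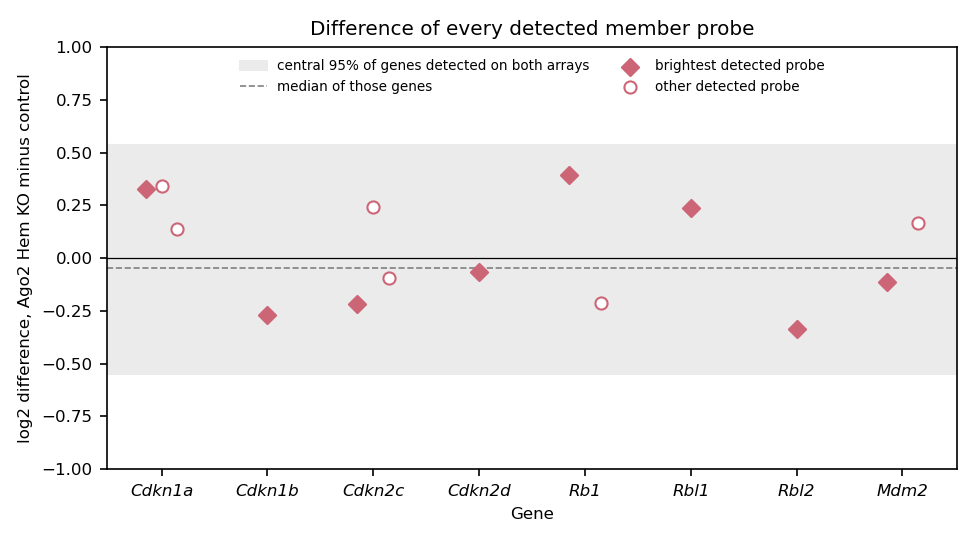
Log2 difference (Ago2 Hem KO minus control) of every member probe detected on both arrays, with diamonds for the brightest probe of a gene and circles for the others. The grey band is the central 95% of genes detected on both arrays and the dashed line their median. All 14 probes lie inside the band, and the probes of Cdkn2c, Rb1 and Mdm2 fall on both sides of 0, a split that changes for Cdkn2c, Rb1 and Mdm2 under scaling to the same median, where all their detected probes lie above 0.

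Rb1, the retinoblastoma gene, was the member with the highest value and with the widest disagreement between probes. Its brighter probe after averaging the arrays read 202 in the control and 283 in Ago2 Hem KO cells, a log2 difference of 0.39 or 1.31-fold. Its other probe read 224 and 233, a log2 difference of -0.22 or 1.16-fold lower. Both probes are annotated to the same RefSeq transcript and both stood at least 27.9 background SDs above the background mean on each array. They differed by 0.61. The direction of Rb1 was therefore not settled by these arrays, and the mean of its probes was 0.09. Among 2043 genes with exactly 2 detected probes, 63.6% had both on the same side of 0.

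Rbl1, which encodes the pocket protein p107, itself an E2F target, was detected on 1 of 3 probes. That probe read 271 in the control and 356 in Ago2 Hem KO cells, a log2 difference of 0.24 or 1.18-fold higher. Measured from the median of all genes it lay between 0.21 and 0.30 above in the 9 settings, the reported one included. All of these settings used this same probe. The other probes, annotated to cDNA clones, read 94.3 and 99.7, and 90.0 and 96.5, and did not pass detection. Rbl2, which encodes p130, the pocket protein that predominates in resting cells, was close to background. Its detected probe read 104 in the control and 103 in Ago2 Hem KO cells, at detection p of 0.00107 and 0.00214. Its log2 difference of -0.34, 1.26-fold lower, shrank to -0.11 without background correction. The other Rbl2 probe read 88.8 and 87.3, undetected on both arrays.

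Mdm2, the ubiquitin ligase for p53 and a p53 target in its own right, was detected on 2 of its 3 probes. The brighter read 654 in the control and 707 in Ago2 Hem KO cells, a log2 difference of -0.11. The other read 557 and 713, a log2 difference of 0.17, so the pair differed in sign and spanned 0.28. The remaining probe read 84.0 and 86.0 and was not detected. Mdm4, the relative of Mdm2 that binds and inhibits p53, passed detection on 1 of 5 probes, at 109.8 and 114. That probe, annotated to a cDNA clone, had a log2 difference of -0.17 that turned to 0.02 under scaling to the same median. The probes annotated to the RefSeq transcript were not detected, with log2 differences between 0.01 and 0.47. Of the 4 members with more than 1 detected probe, 3 had probes of opposite sign (Cdkn2c, Rb1 and Mdm2) and only Cdkn1a did not. Over all genes with 2 or more detected probes, 56.3% had all of them on the same side of 0.

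**Figure D3:**
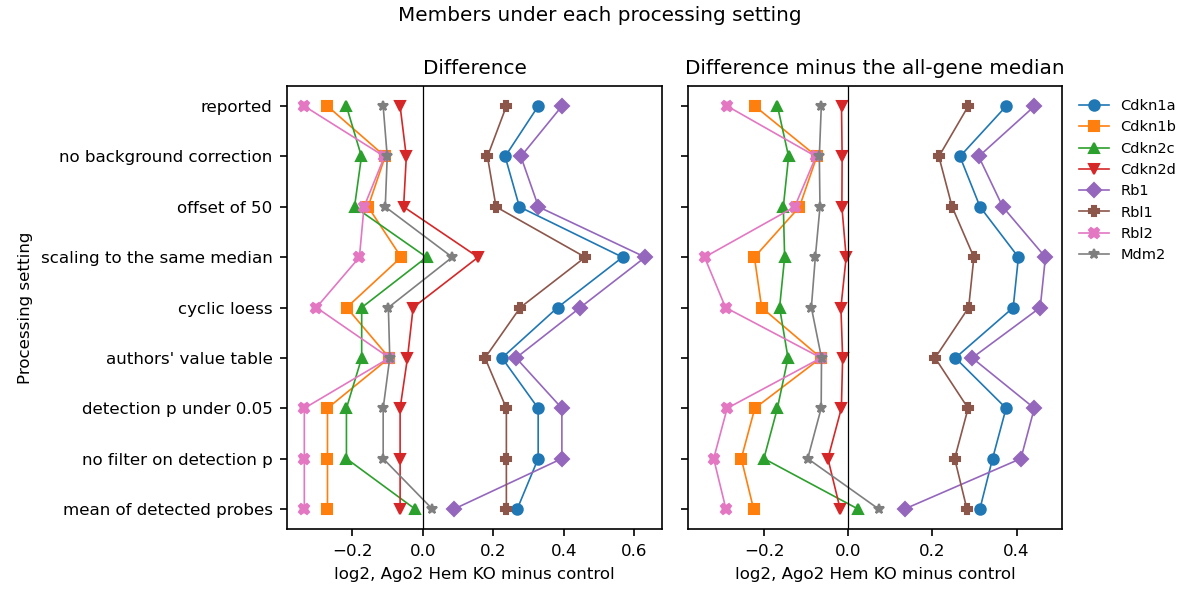
Log2 difference (Ago2 Hem KO minus control) of the 8 detected members under the reported processing and 8 alternatives, as such (left) and after subtracting the median of all genes in that setting (right), with lines joining the values of a gene. Cdkn1a, Rb1 and Rbl1 lie above 0 in both panels in the settings shown, while Cdkn2c, Cdkn2d and Mdm2 cross 0 on the left under scaling to the same median, and with the mean of detected probes Mdm2 crosses in both panels and Cdkn2c on the right. The second brightest probe, which exists for 4 members and puts Rb1 at -0.22, is not drawn.

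The partners and targets of these proteins were described from 8 lists. Of 13 G1 cyclins, CDKs and their activators, 11 were detected on both arrays, with a median of 0.00, and 1 passed 1.5-fold. This was Ccne1, the cyclin E1 gene, which read 136 in the control and 118 in Ago2 Hem KO cells, 1.73-fold lower on its only probe (log2 difference -0.79, and -0.31 in the authors' value table). Ccne2, its paralog, was highest at 0.38, and the INK4 partners Cdk4 and Cdk6 differed by -0.14 and -0.19. Of 10 E2F and DP factors, 9 were detected with a median of -0.14 and none passed 1.5-fold. They ran from the dimerization partner gene Tfdp2 at -0.28 to the atypical E2F gene E2f8 at 0.42. The second Tfdp2 probe lay at 0.21. E2f8 read 98.5 in the control and 117 in Ago2 Hem KO cells, and its log2 difference was 0.14 without background correction. E2f1, the activator restrained by Rb1, differed by 0.36 on its only probe. Of 10 DREAM and MuvB partners, only some of which repress cell cycle genes with Rbl1 or Rbl2, 6 were detected. Their median was 0.11, from Rbbp4 at -0.20 to Foxm1 at 0.19. Other detected probes of these genes reached 0.81 for Lin54 and 0.64 for Rbbp4. Rbbp4 lay above 0 under scaling to the same median, with the mean of its probes and on its second probe.

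Among genes detected on both arrays, the lists of E2F and p53 targets held none past 1.5-fold in the reported processing. Of 20 E2F target genes, 16 were detected, 8 lay above 0 and the median was 0.00. They ran from the ribonucleotide reductase gene Rrm1 at -0.25 to the mitotic kinase gene Cdk1 at 0.35. Other detected probes of these genes reached 0.68 for Top2a and -0.51 for Rrm2. Of 26 p53 target genes other than the members, 14 were detected, 6 lay above 0 and the median was -0.03. The highest was Trp53inp1, which promotes p53 activity, at 0.23. The lowest was the death receptor gene Tnfrsf10b at -0.56 on a probe reading 119 and 112. Without background correction Tnfrsf10b lay at -0.22. Phlda3 was detected in the control alone, with signals of 109 and 97.8, and was at least 1.53-fold higher there. That bound rests on the background correction, since the log2 difference of the probe was -0.25 without it and -0.22 in the authors' value table. Aen was detected only in Ago2 Hem KO cells, with signals of 92.9 and 102.

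Of 18 p53 regulators, 13 were detected with a median of 0.06, from the acetyltransferase gene Kat5 at -0.30 to the kinase gene Hipk2 at 0.50. The second Hipk2 probe lay at 0.07. The DNA damage kinase gene Atm differed by 0.31, with its 3 detected probes between 0.19 and 0.55. Of 21 regulators of CDK inhibitors, 17 were detected with a median of -0.05. Ezh2, a Polycomb methyltransferase gene, was highest at 0.12, and Foxo1, a forkhead factor gene, lowest at -0.57, on a probe reading 115 and 108. Without background correction Foxo1 lay at -0.21. Bmi1, the Polycomb gene that represses Cdkn2a, differed by -0.18. Among 7 other CDK inhibitor and CDK-binding genes, 4 were detected with a median of 0.00, from Cdkn1c at -0.45 to Cdk2ap2 at 0.16, and the CDK phosphatase gene Cdkn3 lay at 0.15. Cdk7, E2f7, Skp2 and Klf4 passed detection only in Ago2 Hem KO cells, at signals between 102.7 and 109. Their control signals were 91.7, 95.2, 97.7 and 93.9 and their log2 differences 0.52, 0.09, -0.07 and 0.22, in that order. As a bound, Cdk7 was at least 1.11-fold higher in Ago2 Hem KO cells, while E2f7, Skp2 and Klf4 gave no bound. The Cdk7 difference was 0.16 without background correction and 0.14 in the authors' value table. Skp2 narrowly missed detection in the control, at a detection p of 0.0107.

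**Figure D4:**
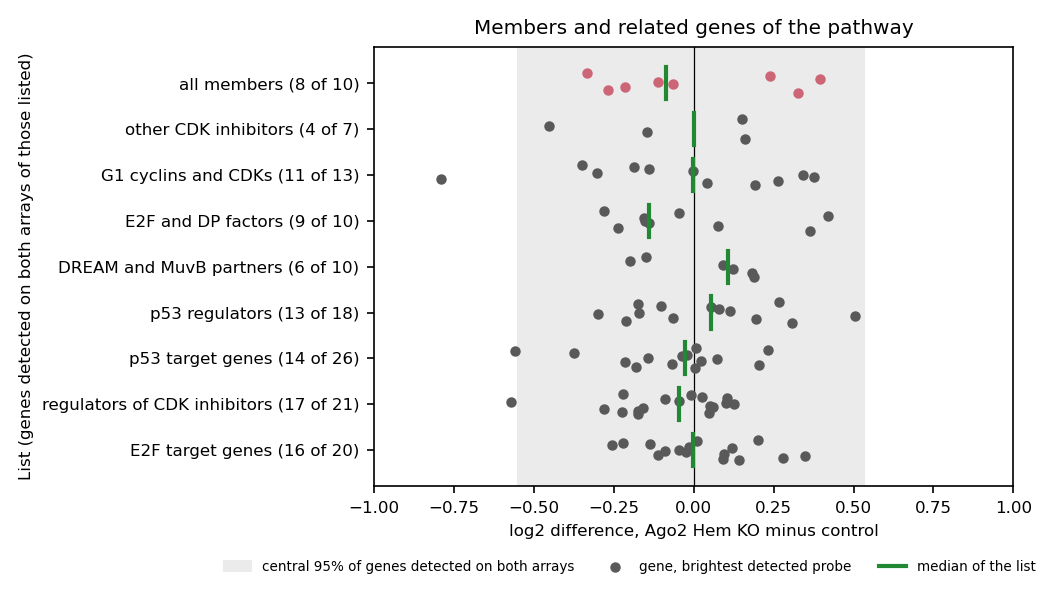
Log2 difference (Ago2 Hem KO minus control) of each gene detected on both arrays for the members and 8 related lists, with green bars at the list medians and a grey band for the central 95% of all detected genes. The list medians lie between -0.14 and 0.11, and Ccne1 at -0.79 is farthest from 0; under scaling to the same median the list medians are all above 0.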

How the data were processed

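Total RNA of LSK cells from 1 Control and 1 Ago2 Hem KO sample was amplified, labelled with biotin and hybridized to Illumina bead arrays, per the labels' protocols. The deposited table holds, per the file headers, a non-normalized bead intensity (linear scale) per probe on each array. It also holds a detection p-value per probe and array, per the file headers. The submitters' processing notes name BeadStudio. The authors' value table, of intensity values already forced to 1 distribution, was used as an alternative.

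With limma 3.58.1 in R 4.3.3, background mean and SD were inferred from the detection p-values (84.7 and 4.20 for the control array, 87.8 and 4.38 for the other). Signals were normexp corrected, given an offset of 16, quantile normalized and put on the log2 scale. A shift shared by most genes is lost in this step. The offset draws differences of dim probes towards 0, while the background correction widens them. Rbl2 lay at -0.34 in the reported processing, -0.17 for an offset of 50 and -0.11 without background correction. A gene took the value of its brightest probe with detection p under 0.01 on both arrays. Where 1 array alone detected a gene, the bound compares its value there with the dim array's own or lowest detected value, whichever is higher. Probes were named by the platform annotation, with symbols updated through RefSeq of GRCm38.p6 (34807 of 34885 probes with 1 symbol matched, 18 had several symbols, 10378 none).

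The steps were run on arrays simulated from the control array alone, without the brighter signals of the other array. That run says nothing of the spread between real arrays. Precision is limited by the 1 array per genotype, which allows no test. Named were all members, in each list genes past 2-fold or else the highest and lowest, Ago2, Cdkn1c, Cdkn2b, Cdkn3 and Mdm4. Other named genes (Cdk4, Cdk6, E2f1, Atm, Bmi1, those detected on 1 array and marker genes) were picked with their values in view. Members and lists were chosen with earlier results of these data known. The microRNAs and motifs were added after the values were seen. Alternatives changed the background correction, offset, normalization, value table, detection filter and choice of probe.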

Additional observations from a re-analysis of the deposited data

How the results depend on the processing

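No paired analysis was possible because each genotype has 1 array, and no replicate could be left out for the same reason. In all, 289 recomputed values were compared with those reported, and 255 stayed within a set limit. The limit was 0.29 on the log2 scale (the SD between probes of a gene), or 1.5 times for counts and shares. It is a wide limit, since Mdm2 stayed within it at 0.17 on its second probe against -0.11. The detection filter settings left the values of all 8 detected members unchanged. The mean of probes did so for Cdkn1b, Cdkn2d, Rbl1 and Rbl2, so these comparisons show little about stability. Counts of members past 2-fold were 0 in all 9 alternatives. The count past 1.5-fold became 1 under scaling to the same median, where 6 and not 3 members lay above 0. Probe choice moved Cdkn2c to 0.24 and Rb1 to -0.22 on the second brightest probe, and Rb1 to 0.0896 with the mean of its probes.

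The share of all genes at least 2-fold higher was 0.0731% in the authors' value table and the same without background correction, 0.183% when the offset was 50, 0.731% under scaling to the same median and 0.194% with no filter on detection p. For 2-fold lower the shares were 0%, 0%, 0.0244%, 0.0487% and 0.0735% in the same order. For 1.5-fold higher they were 0.560% without background correction, 0.511% for the authors' values, 0.925%, 6.44% and 1.20%, and for 1.5-fold lower 0.219%, 0.183%, 0.475%, 0.402% and 1.13%.

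Among the G1 cyclins and CDKs 0 genes passed 1.5-fold without background correction, for an offset of 50, for the authors' values and on the second brightest probe. The count became 1 for p53 regulators under scaling to the same median, for p53 target genes at a detection p under 0.05 and with no filter, and for DREAM and MuvB partners and E2F target genes on the second brightest probe. The second brightest probe gave no value for Cdkn1b, Cdkn2d, Rbl1, Rbl2 or the other CDK inhibitors, which had a single detected probe each.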
